A study of Populus tremula x Populus alba with 10 samples.

Results

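The genes described here were close to silent in the stem of well-watered hybrid poplar and were found in every bulk RNA library from stems under severe drought. There were 110 of them among the 31823 genes in the deposited counts. They were chosen by their bulk CPM, which is a gene's count scaled to a library total of 1000000: a mean below 1 CPM in the 3 control libraries, and 3 CPM or more in each of the 3 drought libraries. Their difference in bulk is therefore a description of the choice. The limits used no value from the nuclei libraries, so what the genes did there is a separate measurement. The limits were set with earlier results of these data known.

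All plants were wild-type Populus tremula x alba (INRA clone 717 1B4), a single clone, raised in vitro and grown in peat for 6 weeks. The bulk groups were 3 control and 3 drought libraries of total RNA from the stem. The nuclei groups were 2 control and 2 drought libraries of nuclear RNA from internode 15 (the series text also names internode 14), with 1 plant for each library. Control soil was kept near field capacity, 0.46 m3 of water per m3, and drought soil was held at 15% of that capacity for 14 days. The series text calls the replicates biological, and the labels tie no plant to both assays.

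A plant short of water closes its stomata, makes the hormone abscisic acid and changes the transcription of many genes. Some of these genes are nearly unread in watered tissue, among them many for late embryogenesis abundant proteins, which are known to protect other proteins and membranes when cells dry out. A stem holds bark, phloem, cambium, xylem and pith, whose cells can answer drought differently. Gene IDs come without names or functions in these files, so no family, role or cell type is assigned to any gene below.

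Bulk libraries held 47900128 to 57594846 counts, so 1 CPM was about 50 reads. Drought library 2 stood apart from the other drought libraries: the chi-square of its counts against theirs was 131 and 158 per degree of freedom, against 10.1 between drought libraries 1 and 3. Control nuclei libraries held 4346198 and 3633900 unique molecular identifiers (UMIs, 1 per captured RNA molecule), and drought nuclei libraries 1930997 and 1994615. For nuclei, CPM is taken over all UMIs in genes of a library. A single UMI was thus worth 0.230 and 0.275 CPM in the controls and 0.518 and 0.501 CPM in the drought libraries. Of 20406 barcodes, 168 occurred in more than 1 nuclei library.

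Together the 110 genes took 53.5, 63.5 and 57.9 CPM in the controls and 4440, 1894 and 4759 CPM in drought libraries 1, 2 and 3. The mean sum was 58.3 ± 5.0 CPM in controls (SD, n = 3) and 3698 ± 1570 CPM under drought (SD, n = 3), a ratio of 63.4. Drought library 2 held less than either other drought library, and far more than any control. In bulk RNA, more cells of a type and more RNA per cell cannot be told apart. No gene was at 0 counts in all controls, but 15 had at least 1 control library at 0. Median levels were 0.405, 0.589 and 0.504 CPM in the controls and 15.8, 6.44 and 17.0 CPM in drought libraries 1, 2 and 3.

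**Figure D1:**
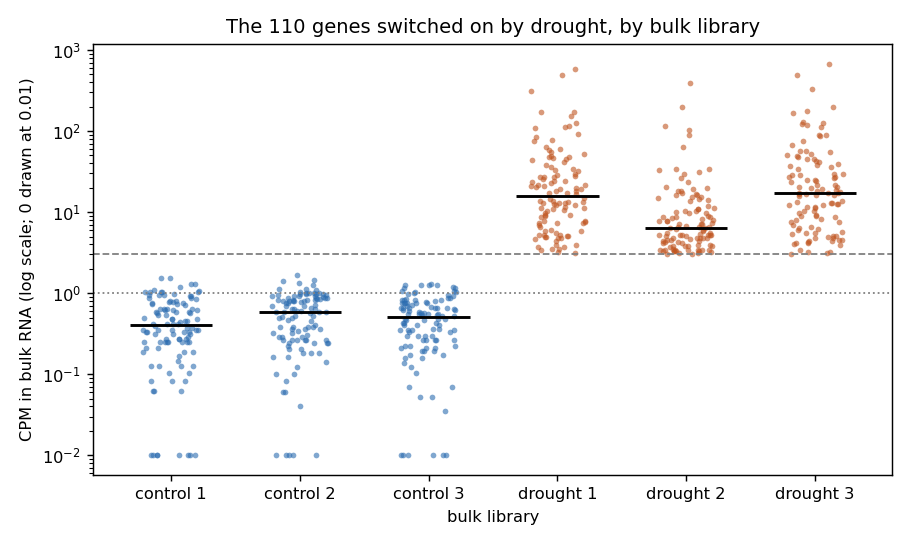
CPM of each of the 110 genes (points, log scale, values of 0 drawn at 0.01) in the 6 bulk libraries; black bars are medians, and the dotted and dashed lines mark the limits of 1 and 3 CPM that chose the genes. By these limits, all 110 genes must lie higher in every drought library than in any control. The median of drought library 2 (6.44 CPM) lies below those of drought libraries 1 (15.8) and 3 (17.0).

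In the bulk comparison each of the 110 genes was called higher under drought (edgeR quasi-likelihood test, adjusted p of at most 0.00654, 3 against 3). Of all 26448 genes tested, 27.1% were called higher, and nothing is read from the contrast because it chose the genes. Their log2 fold changes ran from 1.90 to 12.96, with a median of 5.02, against a median of 0.01 over all genes tested. PtXaAlbH.04G019400, with the highest control mean inside the limit, had 1.56, 0.589 and 0.851 CPM in controls and 3.24, 3.32 and 4.30 CPM under drought. PtXaAlbH.09G061400 was also just inside, with a control mean of 0.996 CPM and 49.7, 19.8 and 57.2 CPM under drought. Just outside lay PtXaAlbH.02G043900 and PtXaAlbH.05G180300, with control means of 1.037 and 1.038 CPM. At the drought limit, the lowest values inside were 3.0007 CPM for PtXaAlbH.02G108600 and 3.057 CPM for PtXaAlbH.15G046900, both in drought library 2. The highest outside were 2.982 CPM for PtXaAlbH.05G144100 and 2.981 CPM for PtXaAlbH.15G051300. Genes on either side of a limit thus differed little in the value it uses.

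A few genes carried much of the summed counts. The 8 with the highest mean drought CPM held 48.8% of it, and the first 3 alone 32.1%. Gene lengths are not used here, so these counts rank reads, not transcripts per cell. Mean drought levels were above 100 CPM for 8 genes, 10 to 100 CPM for 61 and below 10 CPM for 41.

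PtXaAlbH.01G052300 had 0.125, 0 and 0.0695 CPM in controls and 585, 390 and 489 CPM under drought. It was near 0 in every control and within 1.5 times across the drought libraries. PtXaAlbH.14G080600 went from 0.395, 0.630 and 0.556 CPM to 312, 199.5 and 327 CPM (log2 fold change 9.17, SE 0.32, edgeR adjusted p 5.7e-05). PtXaAlbH.15G111200 had 0.187, 1.12 and 1.01 CPM in controls and 117, 115 and 129 CPM under drought. PtXaAlbH.01G078000 had 0.416, 0.487 and 0.833 CPM against 125, 102 and 127 CPM. For the latter pair, drought library 2 was close to the others.

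The other 4 of the highest genes were clearly lower in drought library 2. PtXaAlbH.01G036100 had 0.353, 0.102 and 0.521 CPM in controls and 486, 89.0 and 681 CPM under drought. PtXaAlbH.14G099000 had 0.333, 0.264 and 0.365 CPM against 172, 63.5 and 199 CPM. PtXaAlbH.18G030600 had 0.416, 0.406 and 0.347 CPM against 174, 16.8 and 165 CPM. PtXaAlbH.01G148600, absent from control library 1, had 0.386 and 0.104 CPM in the other controls and 154, 17.1 and 179 CPM under drought. The limits that chose the list place every drought value of a gene above all of its controls, so this separation is no finding.

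The gap between drought library 2 and the others ran through most of the list. The level in library 2 was the lowest of the drought libraries for 86 of the 110 genes (78.2%) and the highest for 14. Among all 19498 genes with at least 3 CPM in each drought library, library 2 was the lowest for 38.8%. The ratio of library 2 to the mean of libraries 1 and 3 had a median of 0.469 over the 110 genes, from 0.0638 to 2.71, against a median of 1.03 over the 19498 genes. The ratio of library 1 to library 3 had medians of 0.973 and 0.998 in the same sets. The limit of 3 CPM applies to library 2 as well, so genes that were lower still in it are missing from the list: 169 further genes met both limits in all libraries except drought library 2.

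**Figure D2:**
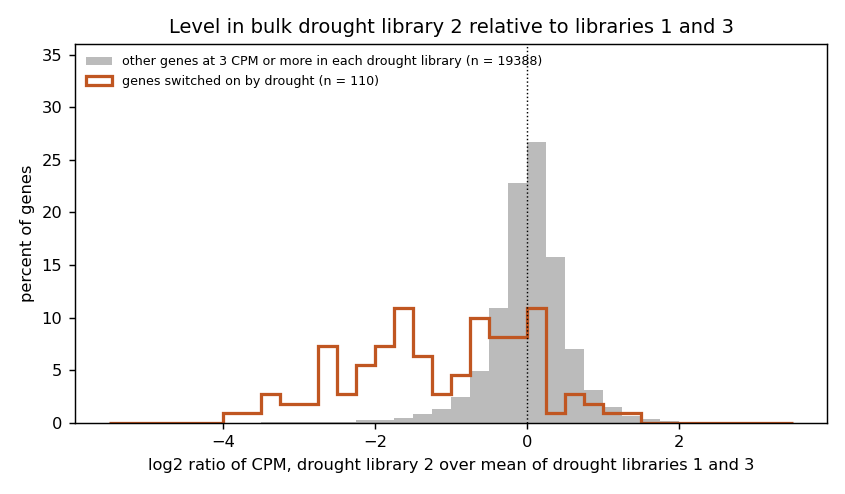
Percent of genes (vertical axis) by the log2 ratio of CPM in bulk drought library 2 to the mean of drought libraries 1 and 3 (horizontal axis), for the 110 genes (outline) and the other genes with at least 3 CPM in each drought library (grey). The grey genes peak near 0, whereas the 110 genes spread from there far to the left, with 56 of them below a ratio of 0.5 and 20 above a ratio of 1.

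At the low end, PtXaAlbH.12G108300 had 60.9, 4.37 and 76.1 CPM in drought libraries 1, 2 and 3, and PtXaAlbH.12G020000 had 45.1, 3.88 and 50.1 CPM. PtXaAlbH.10G046700 had 109, 10.5 and 118 CPM. The ratio of library 2 to the mean of the others was 0.0638, 0.0816 and 0.0922 for the 3 genes. At the high end, PtXaAlbH.18G010800 had 13.9, 34.4 and 11.5 CPM. PtXaAlbH.14G107100 had 7.58, 15.5 and 6.46 CPM, and PtXaAlbH.02G174100 had 7.37, 16.3 and 9.15 CPM. For these, library 2 was the highest drought library, so its lower sum was not a uniform loss over the list. Their controls also varied: PtXaAlbH.02G174100 had 1.67 CPM in control library 2 but 0.249 and 0.260 CPM in the others.

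The nuclei libraries show whether the same genes differ in RNA from nuclei, in libraries that the limits did not use. Control nuclei held 488 and 247 UMIs of the 110 genes, and drought nuclei 571 and 732. As CPM this was 112 and 68.0 in controls and 296 and 367 under drought, so the groups did not overlap. The mean was 90.1 ± 31 CPM in controls and 331 ± 50 CPM under drought (SD, n = 2 each), a ratio of 3.68. Bulk gave 63.4, but limits on bulk levels chose the genes, which by itself favours a high ratio there. PtXaAlbH.05G188200 alone held 206 of the 1303 drought UMIs in nuclei, and without it the nuclei ratio was 3.13. Barcodes in the drought libraries were shallower (medians of 347 and 262 UMIs against 732 and 513), and the part of this in the result was not tested.

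Gene by gene, 50 of the 103 genes with any UMI were higher in both drought nuclei libraries than in both controls, a share of 48.5%. Over all 28149 genes with a UMI this share was 25.6%. In the opposite direction, 3 of the 103 were lower in both drought libraries than in both controls, against 24.0% of the 28149 genes. These were PtXaAlbH.03G087000, PtXaAlbH.06G120400 and PtXaAlbH.19G068400, with 1 and 1, 1 and 1, and 0 and 0 UMIs under drought, and with 3 and 11, 3 and 3, and 3 and 5 in controls. These directions rest on few UMIs. UMIs in drought libraries only were found for 22 of the 110 genes, and in control libraries only for 5. These are 20% and 4.55% of the list, against 1.83% and 5.24% of all 31823 genes. The remaining 7 genes had no UMI in any nuclei library.

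The edgeR test of the nuclei libraries could reach few of these genes. Only 13 of the 110 passed the filter on low counts, and 97 were not tested. Of the 13, 5 were called higher under drought and 0 lower by edgeR. DESeq2 gave an adjusted p to 16 of the 110 and called 5 of them higher and 0 lower. Of these 5, 4 were among edgeR's calls. The other was PtXaAlbH.15G111200, which had not passed edgeR's filter. At an unadjusted edgeR p under 0.05, 7 of the 13 were higher and 0 lower. The share of all genes at that threshold was not counted, so nothing is read from it. At an adjusted p under 0.05, edgeR called 3.63% of all 20768 genes tested higher. DESeq2 called 2.58% of 20508 genes with an adjusted p higher. A gene can pass the filter through its drought level alone, so neither the 5 calls nor the 7 are a share of the list.

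PtXaAlbH.05G188200 gave the clearest difference. Control nuclei held 4 and 4 of its UMIs and drought nuclei 116 and 90, which is 0.920 and 1.10 CPM against 60.1 and 45.1 CPM. Its log2 fold change in nuclei was 5.62 (SE 0.39, edgeR adjusted p 0.000333, n = 2 per group). In bulk the same gene had 0.728, 0.975 and 0.608 CPM in controls and 19.2, 14.1 and 19.5 CPM under drought. It was therefore a gene with higher nuclear than bulk levels under drought, unlike most of the list.

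For PtXaAlbH.10G099400, control nuclei gave 7 and 2 UMIs and drought nuclei 26 and 60 (log2 fold change 4.21, SE 0.62, edgeR adjusted p 0.00591). In bulk it was among the lowest of the list, with 3.49, 4.16 and 3.91 CPM under drought. PtXaAlbH.08G056500 had 2 and 0 UMIs against 11 and 15 (log2 fold change 4.49, SE 0.85, edgeR adjusted p 0.0142). Its call was lost without control library 2 (adjusted p 0.100 with edgeR), it did not pass the filter without drought library 2, and DESeq2 gave it no adjusted p. PtXaAlbH.01G009200 had 7 and 2 UMIs against 16 and 21 (log2 fold change 3.00, SE 0.61, edgeR adjusted p 0.0180), and its call was lost without control library 2 or drought library 2 (edgeR adjusted p 0.107 and 0.108). PtXaAlbH.17G117600 had 9 and 4 UMIs against 14 and 39 (log2 fold change 2.99, SE 0.63, edgeR adjusted p 0.0199), and its call was lost without drought library 2 (edgeR adjusted p 0.182). The calls of PtXaAlbH.05G188200 and PtXaAlbH.10G099400 held with each library left out in turn.

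**Figure D3:**
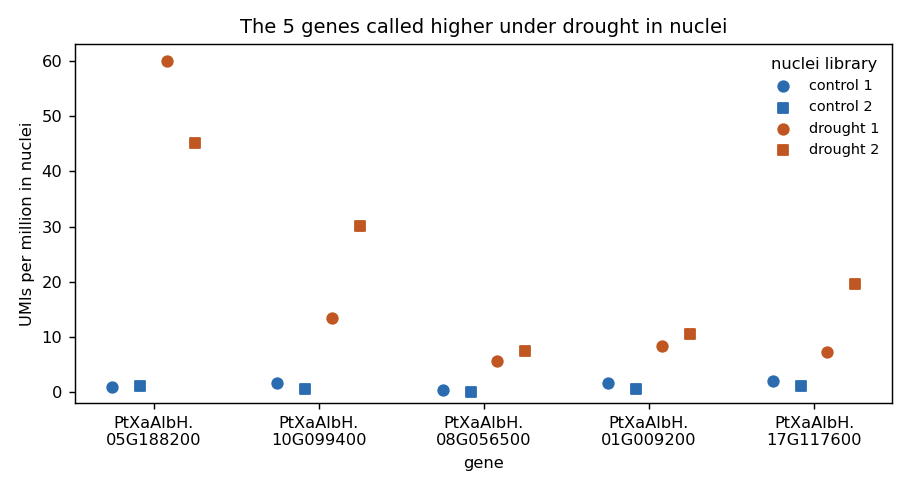
CPM (vertical axis) of the 5 genes called higher under drought in the nuclei comparison, in each of the 4 nuclei libraries. Both drought points lie above both control points for each gene, with the widest gap for PtXaAlbH.05G188200 (45.1 and 60.1 against 0.920 and 1.10 CPM).

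Without the filter on low counts, 14 of the 103 genes with a UMI were called higher under drought and 0 lower (edgeR), against 4.09% of all 28149 genes called higher. Of the 14, 5 had no UMI in control nuclei. PtXaAlbH.15G111200 had 5 and 25 UMIs in drought nuclei and none in either control. Set against a floor of 3 UMIs over both control libraries, its pooled drought level was 20.3-fold higher. Drought library 1 alone gave 6.89-fold and drought library 2 alone 33.3-fold. The drought UMIs are taken as counted, so these ratios leave out their own counting error. PtXaAlbH.01G078000 had 0 and 0 against 6 and 21 UMIs, 18.3-fold higher by the same floor. Drought library 1 and 2 alone gave 8.27-fold and 28.0-fold. PtXaAlbH.01G052300 had 0 and 0 against 5 and 11 UMIs, 10.8-fold higher, and 6.89-fold and 14.7-fold by each library alone. These 3 are also among the 8 genes with the highest drought CPM in bulk. The other 2, named after their values were seen, were PtXaAlbH.05G054500 with 4 and 12 drought UMIs and PtXaAlbH.15G105800 with 2 and 12.

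Levels in the 2 assays were far apart for most of the list. Under drought, 101 of the 110 genes had a lower mean CPM in nuclei than in bulk. The median ratio of nuclei to bulk level was 0.0938, against 1.18 over the 19498 genes with at least 3 CPM in each bulk drought library. A low ratio was not particular to the list. It was 0.0530 for the 94 genes at 1 CPM or more in bulk controls and at least 8 times higher in every bulk drought library. Bulk levels chose the list, which by itself favours genes that are high in bulk. PtXaAlbH.01G036100 is an extreme case: it averaged 419 ± 302 CPM in bulk drought libraries (SD, n = 3) and had 0 UMIs in both drought nuclei libraries, which allows up to 0.764 CPM over the 3925612 UMIs of the pair. PtXaAlbH.14G080600 averaged 279 ± 69.5 CPM in bulk drought libraries (SD, n = 3) and had 1 and 3 UMIs in drought nuclei, against 3 and 2 in controls. Across the 110 genes, bulk and nuclear drought levels had a Spearman correlation of -0.097, against 0.544 over the 19498 genes, a description across genes that share libraries and, in nuclei, mostly have few UMIs.

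**Figure D4:**
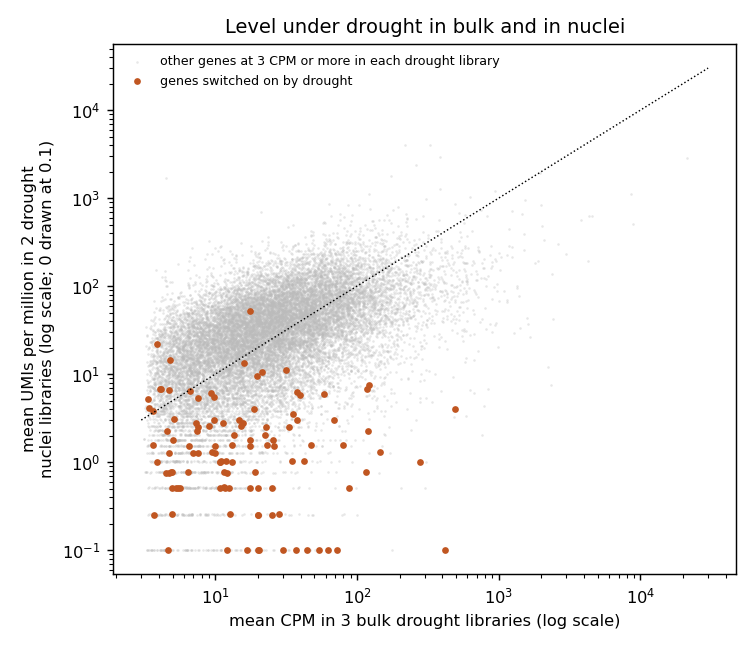
Mean CPM in the 2 drought nuclei libraries (vertical axis, log scale, values of 0 drawn at 0.1) against mean CPM in the 3 bulk drought libraries (horizontal axis, log scale), for the 110 genes (orange) and other genes with at least 3 CPM in each bulk drought library (grey); the dotted line marks equal values. Most orange points lie far below the line, with 101 of the 110 lower in nuclei than in bulk.

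The limit on controls applied to bulk RNA only, and not every gene was near silence in control nuclei. In control nuclei, 81 of the 110 genes had a UMI, 47 had one in both control libraries, and 51 had a higher control mean CPM in nuclei than in bulk. A single UMI was only 0.230 or 0.275 CPM there, so having one does not exclude a low level. Low bulk control levels chose the list, which by itself favours genes that read higher in another assay. The shares over all genes were not counted, so nothing is read from these counts. A level of at least 3 CPM in each control nuclei library was reached by 3 genes. PtXaAlbH.05G043300, named after its values were seen, had 0.873, 0.914 and 0.747 CPM in bulk controls but 76 and 19 UMIs in control nuclei, or 17.5 and 5.23 CPM. Under drought it had 28 and 15 UMIs, or 14.5 and 7.52 CPM, so the nuclei groups overlapped (log2 fold change -0.10, SE 0.57, edgeR adjusted p 0.936). In bulk it had 43.4, 4.78 and 45.8 CPM under drought.

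Nuclei values were also set beside the level in bulk drought library 2. Among the 56 genes with a ratio of library 2 to the others below 0.5, 21 were higher in both drought nuclei libraries than in both controls. Among the 34 genes with a ratio of 0.5 to 1 there were 20, and among the 20 genes with a ratio above 1 there were 9. These classes include genes without a UMI. Over all 28149 genes with a UMI, 25.6% were higher in both. The summed level of the 56 was 68.1 and 31.9 CPM in control nuclei and 101 and 135 under drought. For the 34 it was 32.2 and 27.2 against 147 and 154 CPM, and for the 20 it was 11.96 and 8.81 against 47.6 and 77.7 CPM. In each class both drought libraries lay above both controls; whether the classes differed was not tested.

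Like sets of genes were read in the same way. Of the 169 genes that missed the limit in bulk drought library 2 only, 146 had a nuclei UMI and 52 of these (35.6%) were higher in both drought nuclei libraries. Of 94 genes already at 1 CPM or more in bulk controls and at least 8 times higher in every bulk drought library, all 94 had a UMI and 48 (51.1%) were higher in both. Summed levels went from 332 and 292 to 583 and 513 CPM for the 169 genes, and from 1321 and 751 to 4860 and 6834 CPM for the 94. The differences between these sets and the 110 genes were not tested.

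Nuclei were clustered without the 110 genes and without any gene called in the nuclei comparison, to see in which nuclei the UMIs lay. The 16950 barcodes with at least 200 genes gave 18 clusters, numbered by size, of which 15 had at least 30 nuclei in each library. The cutoff took out mostly drought barcodes. It kept 4342 of 4439 and 5697 of 5698 in controls, and 3172 of 4203 and 3739 of 6066 under drought. The part of this unequal trimming in the cluster levels was not tested. Doublets were not removed. The summed level of the list was higher in both drought libraries than in both controls in 14 of the 15 clusters. Cluster 10 was the exception, with 462 and 199 CPM in controls and 869 and 385 under drought. Cluster 1, the largest, with 4324 nuclei, had 102 and 54.4 CPM in controls and 309 and 423 under drought. Several of these clusters rest on few UMIs of the list: cluster 14 had 2 and 1 in controls and 5 and 7 under drought.

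The level itself varied between clusters. Cluster 13, with 244 nuclei, had 516 and 93.2 CPM in controls and 948 and 1672 CPM under drought, from 27, 4, 29 and 56 UMIs. A pair of genes, PtXaAlbH.10G099400 and PtXaAlbH.15G111200, supplied most of the drought UMIs there. Without them cluster 13 kept 20 and 3 control UMIs and 6 and 15 drought UMIs, or 382 and 69.9 against 196 and 448 CPM, so the groups overlapped and 13 of the 15 clusters were higher under drought. At the other end, cluster 9 had 50.1 and 19.4 CPM in controls and 150 and 115 under drought. These clusters were made from other genes and carry no cell type name, because marker genes could not be named.

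**Figure D5:**
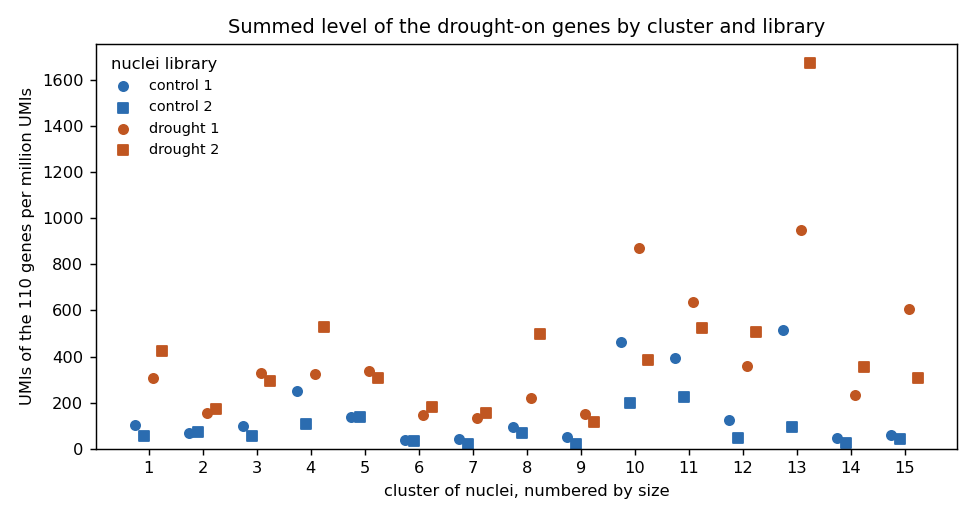
Summed CPM of the 110 genes (vertical axis) in each nuclei library for the 15 clusters (horizontal axis, numbered by size) that had 30 or more nuclei in all 4 libraries. In each cluster except cluster 10 both drought points lie above both control points, and cluster 13 reaches the highest drought value (1672 CPM in drought library 2).

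Single genes differed in how their UMIs were spread. In the kept nuclei PtXaAlbH.05G188200 had 181 drought UMIs in 137 nuclei of 17 clusters, with at most 4 in a nucleus. Cluster 1 held 40.9% of them and 25.1% of all drought UMIs. In cluster 1 the gene had 37 and 37 UMIs under drought and none in controls, and in cluster 3 it had 1 and 1 against 21 and 15. The share of UMIs that came from free RNA was not estimated, so a UMI in a cluster does not by itself show expression there.

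For PtXaAlbH.15G111200, cluster 13 held 21 of its 27 drought UMIs (77.8%), and 1.9% of all drought UMIs. There it had 5 and 16 UMIs under drought and none in controls. Its 27 UMIs came from 16 nuclei, with at most 6 in a nucleus. PtXaAlbH.10G099400 had 43 of its 72 drought UMIs in the same cluster (59.7%), 18 of 22 in library 1 and 25 of 50 in library 2. The cluster held 7 and 1 of its control UMIs and 18 and 25 under drought, or 134 and 23.3 against 588 and 747 CPM. In controls 8 of its 9 UMIs also lay in cluster 13. Cluster 13 had 63 and 59 control and 50 and 72 drought nuclei.

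A further pair of genes is named after their values were seen. PtXaAlbH.01G052500 had 23 of 47 drought UMIs (48.9%) in cluster 11, with 20 and 5 UMIs there in controls and 14 and 9 under drought, or 171 and 58.8 against 308 and 188 CPM. PtXaAlbH.05G043300 had 20 of 28 drought UMIs of library 1 (71.4%) but 2 of 13 of library 2 (15.4%) in cluster 10, with 38 and 10 UMIs there in controls and 20 and 2 under drought, or 320 and 79.5 against 434 and 64.1 CPM. In cluster 10 the groups overlapped. Of the 29 genes with at least 10 drought UMIs in kept nuclei, 13 had their highest count in cluster 1 alone, 5 in cluster 4, 2 each in clusters 10 and 13, and 1 each in clusters 2, 5 and 11. For the other 4, cluster 1 tied with another cluster.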

How the data were processed

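The authors deposited whole-number read counts for each gene of the bulk libraries, and whole-number UMI counts for each barcode of the nuclei libraries, as the values show. HISAT2 is named in the submitters' processing notes. The bulk kit was stranded, per the labels' protocols. The sources used here name no counting software, genome build, barcode selection or strand setting, so near-identical, overlapping and antisense genes are uncertain. The 25 ribosomal and transfer RNA features, with 0.0574% to 0.478% of UMIs, were left out.

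CPM used column totals. Counts were tested with edgeR 4.0.16 in R 4.3.3 (quasi-likelihood F test, TMM, filterByExpr, Benjamini-Hochberg over all genes, threshold 0.05), on 6 bulk libraries and on UMIs summed per nuclei library. Standard errors (SE) were derived from the F statistic and the fold change. DESeq2 1.42.0 was an alternative. The edgeR step was tested on simulated data. For nuclei it recovered 11.7% of 2-fold and 84.85% of 4-fold changes, and for bulk 44.9% and 100%. The simulated spread between libraries was a set value, not estimated from these libraries, so recovery in the real data can differ. Clusters used scanpy 1.11.5 and leidenalg 0.10.2: 2000 variable genes standardised per library, 30 components, 15 neighbours, resolution 0.5, best of 10 starts; no doublet caller was run.

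The 110 genes and the sets beside them were chosen with earlier results of these data known. Genes are named where they are among the 8 with the highest bulk drought mean, called in nuclei, next to a limit, or among the 3 highest and 3 lowest ratios of drought library 2; others are marked. Floors cover counting error only. Same-numbered libraries were not treated as pairs.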

Additional observations from a re-analysis of the deposited data

How the results depend on the processing

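The list depends on its limits and on 1 library: it held 52 genes with a control limit of 0.5 CPM, 66 with a drought limit of 5 CPM, and 102 to 279 with single libraries left out, where 279 is without bulk drought library 2 and includes all 110. With TMM library sizes it held 117. Each of the 110 was called higher in bulk under every alternative run, and the 190 alternative bulk values of named genes kept their call. Over all genes tested, 19.1% to 32.8% were called higher in these runs. The limits chose the 110 genes from the same libraries, so nothing is read from these bulk calls. Members called higher in nuclei numbered 14 without a filter on low counts, and 2 (without drought library 2) to 9 (without control library 1 or drought library 1) with single libraries left out, against 5. The number of the 110 that was tested changed as well, from 13 in the main nuclei run to 103 without a filter. It was 23 and 24 without control library 1 and 2, and 25 and 20 without drought library 1 and 2. Each of these runs with a library left out has 1 library in a group. Their counts of calls are therefore not given. The nuclei sum under drought was 279 CPM without PtXaAlbH.05G188200. Genes higher in both drought nuclei libraries numbered 48 to 55 under other barcodes, thinning or scaling and 54 to 75 with a library left out. Leaving a library out eases the criterion for every gene, and the highest number is without drought library 1. The share over all genes, 25.6%, was counted in the main run only. Clusters with a higher summed level numbered 18 of 21 at resolution 1.0, 11 of 13 for nuclei with at least 300 UMIs, and 13 of 15 without PtXaAlbH.05G188200 or without the pair PtXaAlbH.10G099400 and PtXaAlbH.15G111200. Over all genes, nuclei calls in either direction numbered 2816 without a filter, 1835 with it, and 2792 with the crossed block. Without TMM 5802 bulk genes were called higher against 7173. Same-numbered bulk libraries correlated at -0.004 to 0.030 in their deviations from group means, so numbers were not taken as pairs. Same-numbered nuclei libraries correlated at -0.107 and crossed ones at 0.107. With 2 libraries per group these values must be equal and opposite, so they cannot decide on pairs, same-numbered or crossed. The replicate block called 110 of the list higher in bulk, against 23.6% of all genes tested. In nuclei it called 6 higher, against 3.23%, and the crossed replicate block called 6, against 5.89%. The crossed block, the cluster count without that pair, the runs without shared barcodes and the alternatives for genes higher in both drought nuclei libraries were chosen after seeing the data. Low UMI counts limit the nuclei values: 61 of the 110 genes had fewer than 10 UMIs in all.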

Other observations

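Gene IDs carry a chromosome number and a running number, and 10 of the 110 genes form 5 pairs that lie within 5 places of each other in the order of the feature list. PtXaAlbH.02G174100 and PtXaAlbH.02G174200 are next to each other and share a profile that is uncommon in the list: both were highest in bulk drought library 2, with 7.37, 16.3 and 9.15 CPM for the first and 3.51, 6.58 and 4.01 CPM for the second. PtXaAlbH.18G010700 and PtXaAlbH.18G010800 are also adjacent, with 4.86, 5.29 and 4.56 CPM against 13.9, 34.4 and 11.5 CPM under drought, so both were highest in library 2 and by different margins. PtXaAlbH.04G062700 (5.22, 3.83 and 4.48 CPM) and PtXaAlbH.04G062800 (3.92, 3.45 and 3.45 CPM) were both low.

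The other pairs were less alike. PtXaAlbH.01G052300, at 585, 390 and 489 CPM under drought, lies 2 places from PtXaAlbH.01G052500, at 5.26, 4.31 and 4.77 CPM. In nuclei the order was the reverse, with 5 and 11 UMIs under drought for the first and 37 and 19 for the second. PtXaAlbH.09G026400 (13.7, 3.45 and 17.4 CPM) and PtXaAlbH.09G026700 (5.49, 5.16 and 4.17 CPM) lie 3 places apart. Reads of near-identical neighbours could be shared between them by the counting, and this was not tested.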
